A study of Mus musculus with 5 samples.

Results

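The genes described here build the machinery through which G-protein-coupled receptors act on cyclic AMP (cAMP): adenylyl cyclases, phosphodiesterases, subunits and anchors of protein kinase A (PKA), G-protein subunits, and regulators of G-protein signalling (RGS). They were chosen by symbol among the RefSeq transcripts of the deposited expression table, which gave 106 genes (159 transcripts) of 27802 genes in all, 20340 of them coding. Adcy3, Gnal, Gnas and Gng13 were left out by the rule. Of the 106 genes, 88 reached 1 FPKM (fragments mapped, scaled to transcript length and to all mapped fragments) in at least 1 library, 78 did so in every library, and 18 stayed below it in all 5. RNA had been taken from acutely dissected, snap-frozen brain regions of adult male wild-type C57BL/6 mice: dentate gyrus (DG), olfactory bulb (OB), subventricular zone (SVZ) and, as control tissue without neurogenesis, striatum (STR). For the SVZ there were 2 biological replicates by their labels, called samples 1 and 2 here, and each other region had 1 sample. How many mice gave the tissue of a sample is not stated in the labels.

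An activated receptor loads the alpha subunit of its G protein with GTP and frees the beta-gamma pair. Alpha subunits of the s class stimulate adenylyl cyclases, those of the i/o class inhibit most of them, and those of the q class act through phospholipase C. The cAMP that is made binds the regulatory subunits of PKA and frees its catalytic subunits, A-kinase anchoring proteins (AKAPs) fix the kinase in place, phosphodiesterases break cAMP down, and RGS proteins speed up the return of alpha subunits to their GDP form. In projection neurons of the striatum this chain carries dopamine signals from D1 and D2 receptors, and in granule neurons of the dentate gyrus it is coupled to calcium entry.

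FPKM values hold no read counts, so the depth of the libraries is unknown and no counting error is given. Coding genes at 1 FPKM or more numbered 12275 to 13119 in the 5 libraries. The libraries formed a pair of sets that cut across the regions: of RefSeq transcripts under 200 bases, 153 reached 1 FPKM in SVZ sample 2 and 161 in STR, against 14 to 24 in SVZ sample 1, OB and DG. Gapdh, a glycolytic enzyme gene often used as a reference, was at 32.4 and 39.5 FPKM in the former and 414 to 563 in the latter. Pearson's r over 14029 coding genes, a description across genes, was 0.968 between SVZ sample 2 and STR and 0.943 between the SVZ samples. The DG library had 16725 transcripts listed at 0, against 9564 to 10807 in the others. Differences are therefore also given within a set (SVZ sample 1 with OB or DG, SVZ sample 2 with STR), and OB or DG against STR as bridged values, the sum of the 2 within-set differences through the SVZ. Among the 88 detected members the SVZ samples differed by a median of 0.30 log2 units in either direction (0.41 over coding genes), 7 differed by 1 unit or more and 0 by 2 or more.

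Summed FPKM of 12 striatal projection neuron markers was 3742 in STR, 332 in OB and 126 in DG. In SVZ samples 1 and 2 it was 4579 and 3669, the first above the STR value and the second close to it. The sum of 9 dentate granule markers was 725 in DG and 82.2 to 162 elsewhere, and that of 8 olfactory bulb neuron markers was 1761 in OB and 26.6 to 39.9 elsewhere. Of the dentate list, Calb1 was higher in STR (124 FPKM) than in DG (111). At 72.9 and 95.7 in the SVZ samples, it made up most of the dentate sums of the SVZ and STR. The DG library also had the highest sum of 8 markers of CA and cortical excitatory neurons, 1105, against 529 in OB and 95.6 to 156 in the SVZ and STR. It moved with the genes highest in DG, such as Adcy1 and Gng2, and its part in them was not tested. Ependymal markers summed to 377 and 151 in the SVZ and to 6.92 in STR. In such bulk samples, fewer cells of a type and less RNA per cell cannot be told apart.

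Many of the signalling genes stood apart between regions. On log2(FPKM + 1), which understates folds of low genes, 31 of the 88 members were at least 4-fold (2 log2 units) apart between their highest and lowest region, 35.2% of them, where 14.3% of all coding genes were. With within-set and bridged values it was 25 members (28.4%) against 11% of coding genes. The median spread over the 4 regions was 1.49 log2 units for the members and 1.02 for all coding genes. Of the 31 members, 10 were highest in STR, 9 in the SVZ, 10 in OB and 2 in DG. The lowest region was OB for 11 and DG for 11, STR for 7 and the SVZ for 2. None of the 5 alpha subunits of the i/o class, 3 of the q class and 2 of the 12 class at 1 FPKM, none of 4 beta subunits and none of 2 PKA catalytic subunits was 4-fold apart. By contrast 5 of 9 gamma subunits, 5 of 8 adenylyl cyclases, 8 of 17 phosphodiesterases outside the PDE6 group and 9 of 17 RGS genes were. With bridged values these counts were 4, 3, 8 and 8, and Adcy2 and Adcy6 were the cyclases that missed 4-fold.

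**Figure D1:**
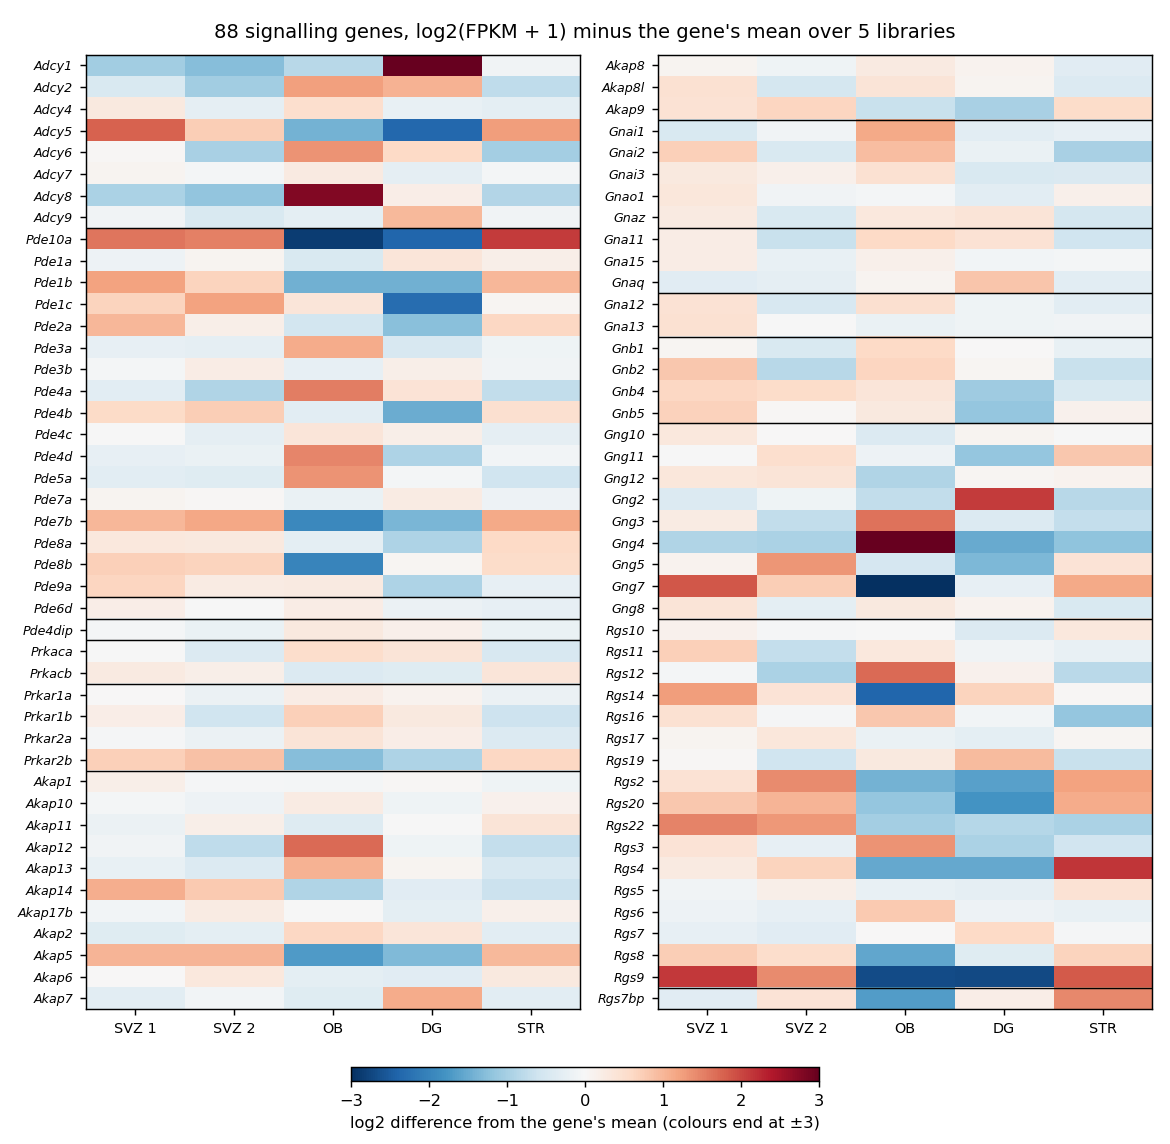
Heat map of the 88 members at 1 FPKM or more, ordered by family (lines part the families), with 1 column per library; colour is log2(FPKM + 1) minus the gene's mean over the 5 libraries, in log2 units. Rgs9, Pde10a, Adcy5 and Akap5 are red in both SVZ samples and STR and blue in OB and DG, while Gnao1 and Prkar1a are pale.

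Each pair of regions was compared by size, because no more than 1 residual degree of freedom (from the SVZ pair) was available for a test. Between SVZ and STR, the niche and its neighbour, 1 of 86 members was at least 4-fold higher in the SVZ, where 1.5% of coding genes were, and 0 were lower, where 0.144% were. In OB against STR, 8 of 86 were higher (6.4% of coding genes) and 14 lower (2% of coding genes). After median ratio scaling the OB split became 3 higher and 15 lower, and with bridged values 2 and 13. Coding genes shifted the same way: scaling moved them from 856 higher and 268 lower to 454 and 433. Bridged values gave 3.05% and 1.53% of coding genes. In DG against STR, 2 of 85 were higher (3.42% of coding genes) and 10 lower (2.44% of coding genes). As shares of the members at 1 FPKM, the lower genes were 16.3% for OB and 11.8% for DG, and both comparisons share the STR library.

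In SVZ against OB, 14 of 88 members were higher (2.09% of coding genes) and 5 lower (3.62% of coding genes). After scaling they were 15 and 2, where coding genes went from 286 and 496 to 346 and 341. Within the set they were 11 and 2 (2.46% and 2.75% of coding genes). SVZ against DG gave 13 of 87 higher (2.93% of coding genes) and 2 lower (2.15% of coding genes). OB against DG gave 6 of 86 higher (3.67% of coding genes) and 5 lower (1.46% of coding genes). The median of all coding genes itself differed by 0.53 log2 units for OB minus STR, by 0.26 for DG minus STR, by 0.25 for OB minus DG, by 0.23 for SVZ minus STR and by -0.25 for SVZ minus OB, so single differences below are to be read against those shifts. For SVZ minus DG it was 0.01.

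limma, fitted to all genes and libraries, called 0 members in every pair at an adjusted p under 0.05 (0% of all genes tested in each pair). The smallest adjusted p of a member by limma was 0.656 for SVZ minus STR, 0.201 for OB minus STR, 0.227 for DG minus STR, 0.140 for SVZ minus OB, 0.156 for SVZ minus DG and 0.154 for OB minus DG. Members at an unadjusted limma p under 0.05 numbered 4 of 87 for SVZ minus STR, where 4.75% of all genes were, and 29 of 86 for OB minus STR (14.1% of all genes). They numbered 19 of 85 for DG minus STR (11.9%), 31 of 88 for SVZ minus OB (14%), 26 of 88 for SVZ minus DG (14.1%) and 16 of 86 for OB minus DG (12.6%). With a stricter filter, 5 FPKM in at least 1 of the regions compared, the test called Gng4 in SVZ minus OB (limma adjusted p = 0.0444) and OB minus DG (0.0472), and Adcy1 in SVZ minus DG (0.0463). Errors given below are limma standard errors of the log2 difference (SE, with n = 2 for the SVZ and n = 1 for OB, DG and STR), which assume that OB, DG and STR vary like the SVZ. The SVZ samples lie in different library sets, so their spread also holds the difference between the sets.

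**Figure D2:**
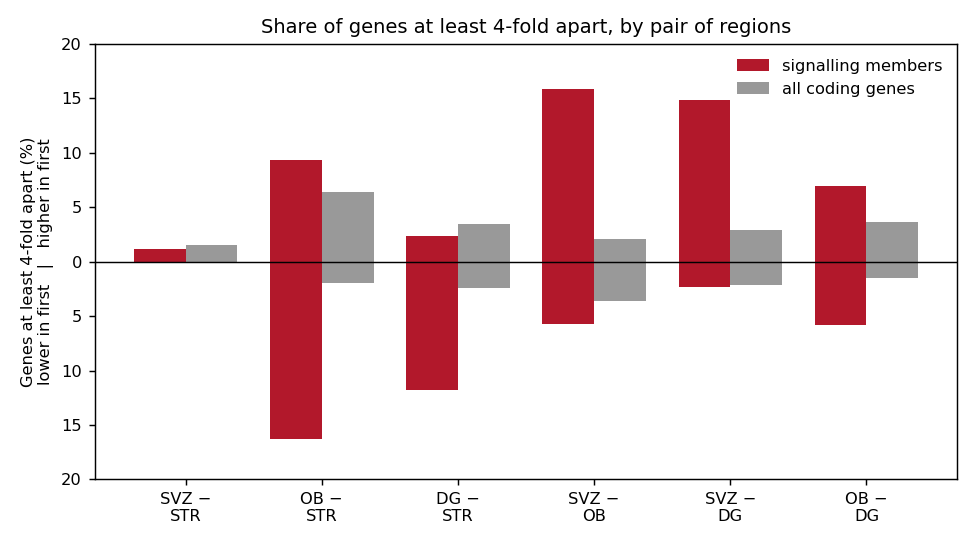
Share of genes (%) at least 4-fold apart on log2(FPKM + 1) in each pair of regions, upward for genes higher in the first region and downward for genes lower in it; red bars are the 85 to 88 members at 1 FPKM or more, grey bars all coding genes at that level. For SVZ minus OB the members reach 15.9% upward against 2.09% of coding genes, and for SVZ minus STR 1.16% against 1.5%.

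A block of 6 genes stood together. In both SVZ samples and in STR, Adcy5, Akap5, Pde10a, Pde1b, Pde7b and Rgs9 were each at least 4-fold above both OB and DG, a pattern that 0.371% of coding genes had. No member showed the opposite order, OB and DG at least 4-fold above the other 3 libraries, which 0.328% of coding genes had. The pattern was chosen after its values were seen. Without SVZ sample 1 it held 9 members, with Rgs2, Rgs20 and Rgs4 added, and without SVZ sample 2 the same 6. Striatal neuron markers moved with it, as given above. Oligodendrocyte markers (8 genes, none at 0) did too, with sums of 3265 and 2723 in the SVZ and 3059 in STR against 1535 in OB and 882 in DG. The part of either in the pattern was not tested. For SVZ, OB and DG in 1 library set, SVZ sample 1 alone was at least 4-fold above OB and DG for 8 members, these 6 with Gng7 and Rgs22.

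**Figure D3:**
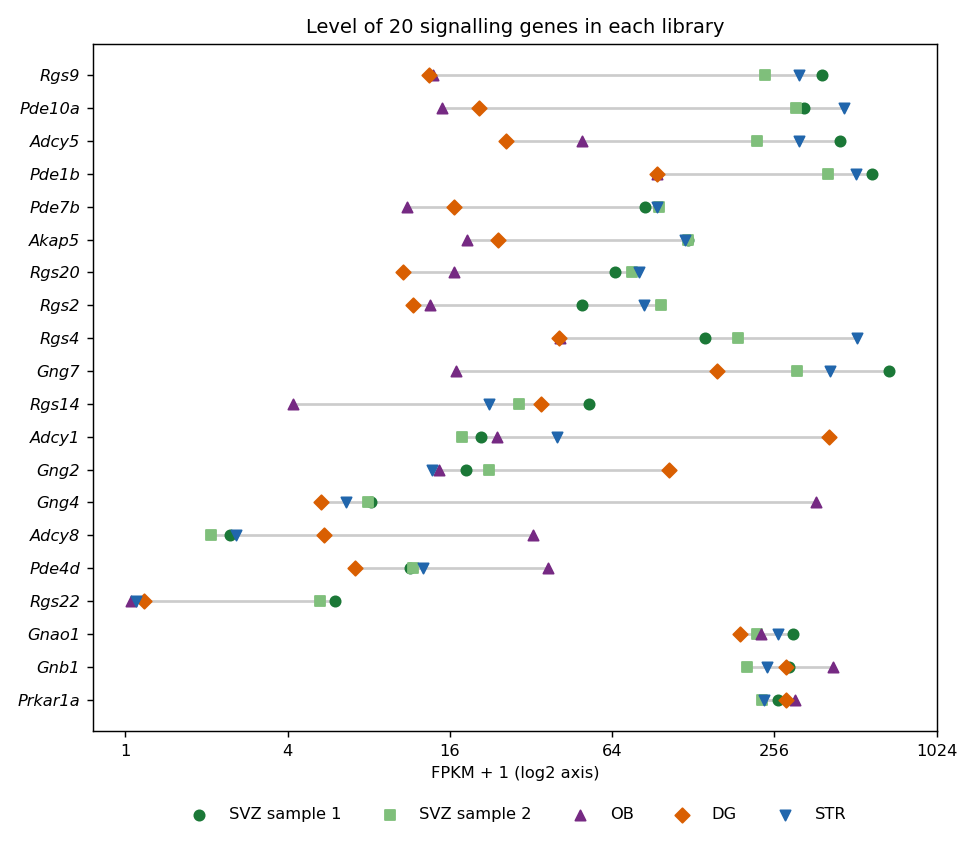
Level of 20 members in each of the 5 libraries, as FPKM + 1 on a log2 axis, with 1 marker per library and a grey line over the range. The upper 6 genes are high in both SVZ samples and STR and low in OB and DG, Adcy1 and Gng2 are highest in DG, Gng4 and Adcy8 in OB, and Gnao1, Gnb1 and Prkar1a lie close together.

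The family of adenylyl cyclases, the enzymes that make cAMP, was led by Adcy5 in the SVZ and STR, by Adcy2 in OB and by Adcy1 in DG. Adcy5, the main striatal cyclase, which is inhibited by Gi proteins, lay at chromosome 16, 35155722 to 35304635 (mm9). It had 449 and 219.8 FPKM in SVZ samples 1 and 2, 315 in STR, 48.4 in OB and 24.9 in DG. The SVZ samples lay on either side of the STR value, and OB and DG were far below all 3. Its log2 difference was -3.61 ± 0.75 for DG minus STR (bridged -4.63) and -2.68 ± 0.75 for OB minus STR (bridged -3.70).

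Adcy1, a cyclase stimulated by calcium and calmodulin that is known for its part in hippocampal plasticity, was at 407 FPKM in DG (chromosome 11, 6963492 to 7078508, mm9). It was at 38.8 in STR, 22.9 in OB, and 19.8 and 16.7 in the SVZ samples. DG stood alone at the top, by 3.36 ± 0.46 log2 units over STR (bridged 3.12), by 4.09 ± 0.46 over OB and by 4.41 ± 0.40 over the SVZ (4.29 within the set). Adcy8, the other calcium-stimulated cyclase of the brain, was instead highest in OB, at 31.5 FPKM against 4.44 in DG, 1.57 in STR, and 1.45 and 1.09 in the SVZ. Its OB minus DG difference, within 1 set, was 2.58 ± 0.44, and OB minus STR gave 3.66 ± 0.44 (bridged 3.42).

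Adcy2, which beta-gamma subunits stimulate, was at 75.4 and 65.4 FPKM in OB and DG and at 22.5, 14.9 and 17.9985 in SVZ samples 1 and 2 and STR. The OB and DG values lay above the other 3, by 2.01 ± 0.54 for OB minus STR (bridged 1.44) and 1.81 ± 0.54 for DG minus STR (bridged 1.24). For Adcy6, a close relative of Adcy5, the values were 27.6 FPKM in OB, 15.8 in DG, 10.5 and 4.71 in the SVZ and 4.52 in STR. Its difference of 2.37 ± 0.71 for OB minus STR was 1.36 when bridged, and for DG minus STR 1.60 ± 0.71 became 0.59. Adcy9 was at 42.2 FPKM in DG and 15.1 to 19.7 elsewhere, with -1.25 ± 0.41 for SVZ minus DG. Adcy4 and Adcy7 stayed between 0.92 and 2.37 FPKM, and Adcy10, the soluble bicarbonate-sensing cyclase, was below 1 FPKM in all 5 libraries.

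Within a library, shares of the family's summed FPKM do not depend on the scaling between libraries. Adcy5 held 85.3% and 80.1% of the cyclase FPKM in SVZ samples 1 and 2 and 78.8% in STR, against 21.3% in OB and 4.44% in DG. Adcy1 held 72.4% in DG and 3.77% to 10.1% in the other libraries. In OB no cyclase held more than 33.2%, the share of Adcy2, followed by Adcy5, Adcy8 (13.9%) and Adcy6 (12.1%). With Adcy3, which the rule leaves out, put back into the sum, Adcy5 held 74.5% in STR, Adcy1 still led DG and Adcy2 held 30.4% in OB.

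**Figure D4:**
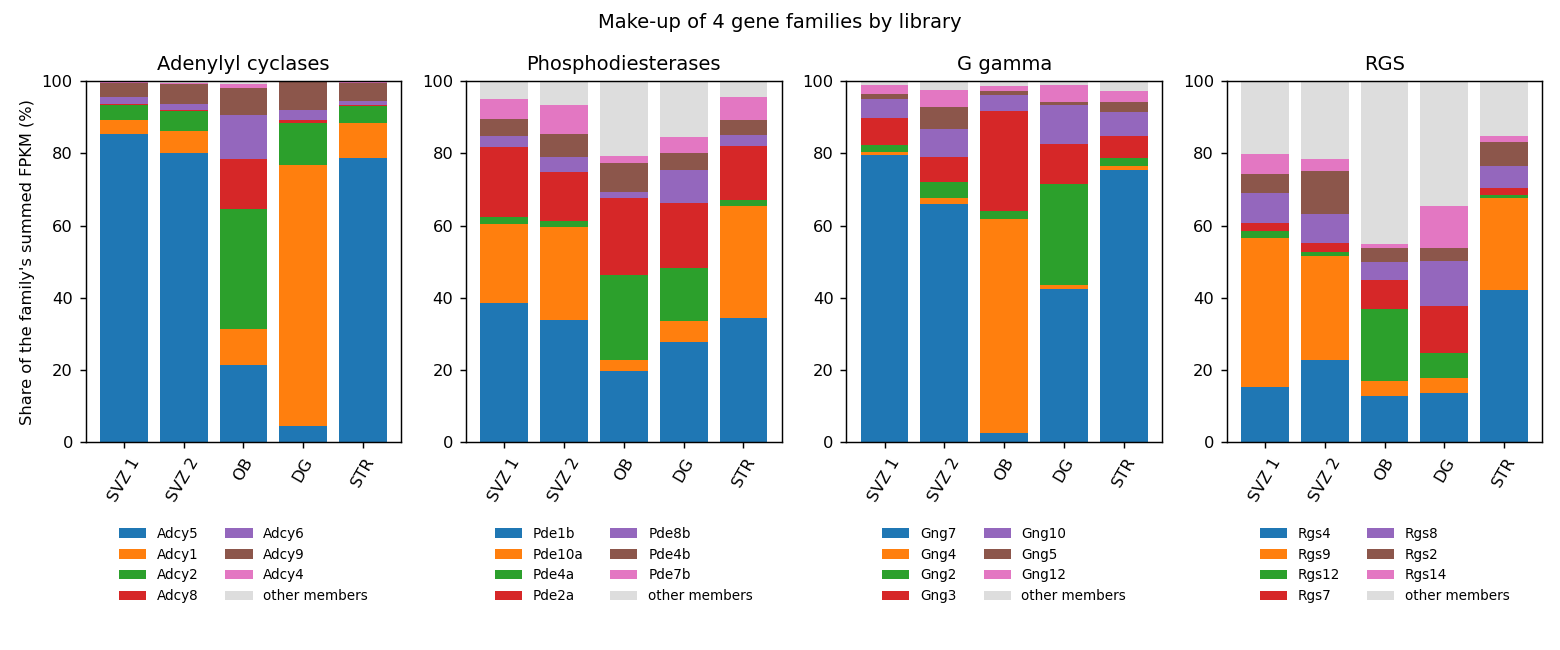
Share (%) of the summed FPKM of 4 families held by each member in each of the 5 libraries (SVZ 1 and SVZ 2 are the SVZ samples); each panel names its 7 members with the highest share in any library, and grey is the rest. Adcy5 and Gng7 fill most of the bars of the SVZ samples and STR, Adcy1 fills 72.4% of the cyclase bar in DG, and Gng4 59.3% of the gamma bar in OB.

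Phosphodiesterases, which hydrolyse cAMP, cGMP or both, were far more abundant in the SVZ and STR. Outside the PDE6 group their summed FPKM was 1519 and 1197 in the SVZ and 1490.3 in STR, against 466 in OB and 337 in DG. Pde10a, a dual-substrate enzyme known for its high level in striatal projection neurons (chromosome 17, 8994610 to 9179513, mm9), was at 329.8 and 308 FPKM in the SVZ, 464 in STR, 14.01 in OB and 19.6 in DG. The values of OB and DG lay far from the rest: -4.96 ± 0.50 for OB minus STR (bridged -5.05), -4.50 ± 0.50 for DG minus STR (bridged -4.60) and 4.41 ± 0.43 for SVZ minus OB (4.46 within the set). Between SVZ and STR the difference was -0.54 ± 0.43.

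Pde1b, activated by calcium and calmodulin, was the most abundant phosphodiesterase in 4 of the 5 libraries. It was at 588 and 405 FPKM in the SVZ, 511 in STR, 92.5 in OB and 93.1 in DG. OB and DG were alike and both below the others, by -2.45 ± 0.65 for OB minus STR and -2.44 ± 0.65 for DG minus STR (bridged -2.99 and -2.98). Its relative Pde1c was lowest in DG, at 0.640 FPKM, and at 9.22 in OB, 7.35 in STR and 11.6 and 17.3 in the SVZ. DG lay outside the range of the other 4 libraries for Pde1c, with 3.21 ± 0.47 for SVZ minus DG and 2.64 ± 0.54 for OB minus DG. Pde1a varied less, from 7.58 to 14.1 FPKM.

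Pde7b, which is specific for cAMP, was at 83.6 and 94.9 FPKM in the SVZ, 93.3 in STR, 10.1 in OB and 15.6 in DG. SVZ and STR were again together, with 3.02 ± 0.40 for SVZ minus OB (2.92 within the set). Pde8b, another cAMP-specific enzyme, differed from this order in that DG, at 30.2 FPKM, lay close to the SVZ (48.2 and 46.6) and STR (43.4), and only OB was low (6.69). For Pde8b OB minus DG was -2.02 ± 0.44. Pde2a, which cGMP stimulates, was at 293 and 164 FPKM in the SVZ, 225 in STR, 99.8 in OB and 60.5 in DG. Its spread of 1.87 log2 units between regions missed 4-fold, but it was 2.71 with bridged values and also passed 4-fold after median ratio scaling.

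The PDE4 group, cAMP-specific enzymes inhibited by rolipram, split. Pde4a was at 109.7 FPKM in OB, 49.9 in DG, 30.00 and 19.6 in the SVZ and 22.1 in STR. It held 23.5% of the phosphodiesterase FPKM in OB, the leading share there, and 1.49% in STR, while its OB minus STR difference was 2.26 ± 0.55 (bridged 1.67). Pde4d was likewise highest in OB, at 36.1 FPKM against 6.10 in DG and 10.4 to 11.7 in the SVZ and STR, with 2.38 ± 0.45 for OB minus DG. Pde4b was higher in the SVZ and STR than in OB and DG, at 69.97 and 78.8 FPKM in the SVZ, 64.9 in STR, 37.4 in OB and 15.96 in DG, with 2.15 ± 0.40 for SVZ minus DG (2.06 within the set).

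Low-level phosphodiesterases that are also expressed outside neurons, Pde3a and the cGMP-specific Pde5a, were highest in OB, at 4.65 and 5.50 FPKM, with the other libraries between 0.691 and 1.45 FPKM. Meningeal fibroblast markers (7 genes, none at 0 in any library) summed to 2269 in OB and to 159 to 289 elsewhere, and endothelial and mural markers (7 genes, none at 0) to 110.1 in OB against 39.3 to 56.4. Most of the vascular sum in OB was Cldn5, at 70.8 FPKM there and 12.6 to 23.0 elsewhere. Pecam1, Pdgfrb and Notch3 were also highest in OB, and Flt1, Abcc9 and Kcnj8 were not. Ptgds alone gave 2178 of the meningeal sum in OB, and Lum was highest in DG. The part of these cells in the OB values was not tested. Pde9a, specific for cGMP, was at 16.5 and 12.2 FPKM in the SVZ and 8.46 in STR (0.68 ± 0.44), a difference that was -1.26 on its most abundant transcript alone. Of the 6 PDE6 genes, named for the phosphodiesterase of photoreceptors, Pde6d was at 29.6 to 41.6 FPKM. It encodes a chaperone of prenylated proteins, and the other 5 stayed below 1 FPKM in all 5 libraries.

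Of the PKA genes Prkar2b alone was 4-fold apart between regions, and with bridged values none was, its spread being 1.997 log2 units. Prkar1a, the regulatory subunit RI alpha, was at 262 and 229.8 FPKM in the SVZ, 304 in OB, 283 in DG and 232 in STR, and it led the regulatory subunits in every library with 50.9% to 57.5% of their FPKM. Prkar2b, the RII beta subunit enriched in striatal neurons, was at 68.7 and 76.6 FPKM in the SVZ and 64.4 in STR against 16.5 in OB and 21.1 in DG. SVZ and STR lay above OB and DG, with 2.07 ± 0.39 for SVZ minus OB (1.997 within the set). Prkar2b held 13.3%, 18.3% and 15.9% of the regulatory FPKM in SVZ samples 1 and 2 and STR, and 2.81% and 4.19% in OB and DG. Among the catalytic subunits Prkacb led in all 5 libraries, with 72.2%, 76.4% and 79.3% of the sum of Prkaca and Prkacb in the SVZ and STR and 52.3% and 55.7% in OB and DG. The summed FPKM of both was between 198 and 238 in the 5 libraries.

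Of the 14 AKAP genes at 1 FPKM or more, Akap5 and Akap12 were at least 4-fold apart between regions, and with bridged values Akap5 alone. Akap5, which anchors PKA at the postsynaptic density, was at 121 and 122 FPKM in the SVZ, 118 in STR, 17.6 in OB and 23.1 in DG. The 3 high libraries were within 4 FPKM of each other, and SVZ minus OB gave 2.72 ± 0.40 (2.72 within the set). Akap12, a scaffold also known as gravin, was at 28.4 FPKM in OB and 4.39 to 7.40 in the other libraries (2.40 ± 0.57 for OB minus STR, bridged 1.76). OB had the highest meningeal and vascular marker sums, which rested mostly on Ptgds and Cldn5, as given above. Markers of olfactory sensory axons and ensheathing glia (6 genes, with S100a5 at 0 outside OB) summed to 1650.3 there and to 99.7 to 186 elsewhere. Their part in genes highest in OB was not tested. Akap7 was highest in DG, at 21.4 FPKM against 7.06 to 8.87, with -1.31 ± 0.41 for SVZ minus DG. Akap8l, a nuclear member, led the family in OB and DG (98.2 and 80.5 FPKM), and it differed between the SVZ samples too, at 104 and 51.9 FPKM.

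No alpha subunit of the i/o, q or 12 class reached a 4-fold difference between regions. Gnas and Gnal, of the s class, were left out by the rule and are not covered. Gnao1, the abundant neuronal Go alpha, was at 299.7 and 219 FPKM in the SVZ, 228 in OB, 189.8 in DG and 263 in STR, and it led the i/o class in every library. Gnai2, an inhibitory alpha subunit, ran from 59.9 FPKM in STR to 226 in OB. Its SVZ samples lay apart, at 195 and 86.5 FPKM, and SVZ minus STR was 1.10 ± 0.70 (0.52 within the set). With bridged values its spread over regions was 1.13 log2 units, below those of Gnai1 (1.74) and Gnaq (1.21). Gnai1 was at 124 FPKM in OB and 40.02 to 51.4 elsewhere. Gnaq, the q class subunit, was at 113 FPKM in DG against 50.04 to 67.8, while its partner in the class, Gna11, was between 34.01 and 83.2. Gna12 led the 12 class in all 5 libraries, at 31.1 to 61.3 FPKM. Its exons overlap a coding gene on the opposite strand, as do those of Gng3, Rgs11, Rgs20, Akap9 and Pde6h in the GENCODE annotation, and reads of such pairs cannot be told apart here.

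No beta subunit reached it either. Gnb1, the commonest of them in 4 libraries, was at 289.9 and 201 FPKM in the SVZ, 423 in OB, 282 in DG and 239.8 in STR. Gnb2 was at 346 FPKM in SVZ sample 1, where it led, and at 109.9 in SVZ sample 2. Gnb4 was at 26.6 and 25.01 FPKM in the SVZ, 22.00 in OB, 11.9 in STR and 7.54 in DG, with 1.05 ± 0.39 for SVZ minus STR (1.01 within the set). For Gnb5, the beta subunit that pairs with RGS proteins of the R7 group, DG was lowest at 64.2 FPKM, and OB, STR and the SVZ were at 148 to 233.

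Gamma subunits held the gene with the widest spread of all members, Gng4. Gng7, which in mice pairs with the olfactory type alpha subunit in striatal neurons (chromosome 10, 80411369 to 80477670, mm9), was at 680.3 and 309 FPKM in the SVZ, 409 in STR, 156 in DG and 15.8 in OB. OB alone was low, with 4.77 ± 0.71 for SVZ minus OB (5.34 within the set), -4.60 ± 0.82 for OB minus STR (bridged -5.74) and -3.22 ± 0.82 for OB minus DG. Gng4 (chromosome 13, 13876806 to 13920162, mm9) was instead high in OB alone, at 364 FPKM in OB against 7.13 and 6.93 in the SVZ, 5.61 in STR and 4.32 in DG. This was the largest spread among the 88 members, at 6.10 ± 0.45 for OB minus DG and 5.79 ± 0.45 for OB minus STR (bridged 5.75).

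Gng2 was highest in DG, at 103 FPKM, and at 17.3 and 21.4 in the SVZ, 13.6 in OB and 12.7 in STR. DG lay above every other library, by 2.92 ± 0.47 for DG minus STR (bridged 3.21), although an annotated noncoding gene overlaps Gng2 exons on the opposite strand over up to 897 bases. Gng3, a neuronal gamma subunit, was at 169 FPKM in OB, 40.2 in DG, 63.6 and 31.6 in the SVZ and 32.2 in STR (2.04 ± 0.70 for OB minus DG, within 1 set). Gng5 and Gng11 followed the library sets: Gng5 was at 28.1 FPKM in SVZ sample 2, 14.4 in STR and 3.54 to 11.4 in the other set, and Gng11 at 11.04 and 13.9 against 2.78 to 7.36.

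By share of the gamma FPKM, Gng7 held 79.5% and 66.1% in the SVZ samples, 75.4% in STR, 42.4% in DG and 2.59% in OB. Gng4 held 59.3% in OB, followed by Gng3 with 27.5%, and Gng2 held 28.01% in DG. With Gng13 put back into the sum, Gng4 still led OB where Gng13 held 15.8%, and Gng7 held 71.9% in STR. The leading gamma subunit was thus the same in every library but OB.

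By share of the RGS FPKM, Rgs9 led in both SVZ samples (41.3% and 28.9%), Rgs4 in STR and DG, and Rgs12 in OB (20.1%). Rgs9, the striatal member of the R7 group, which acts on D2 dopamine and opioid receptor signals (chromosome 11, 109086669 to 109159495, mm9), was at 382 and 236 FPKM in the SVZ, 314 in STR, 12.8 in OB and 12.4 in DG. OB and DG were nearly equal and far below the rest, with -4.51 ± 0.61 for OB minus STR, -4.55 ± 0.61 for DG minus STR (bridged -5.21 and -5.25) and 4.49 ± 0.53 for SVZ minus DG (4.84 within the set). Rgs7bp, the membrane anchor of the R7 group, was at 176 FPKM in STR, 50.5 and 85.6 in the SVZ, 73.7 in DG and 19.5 in OB. STR was highest for Rgs7bp, with -1.41 ± 0.53 for SVZ minus STR (-1.03 within the set). The other R7 genes were less variable: Rgs7 was at 19.4 to 37.9 FPKM, Rgs6 at 5.08 to 11.4 and Rgs11 at 7.11 to 20.8.

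Rgs4, a small RGS protein of Gi and Gq signals, was the most abundant RGS gene in STR, at 519 FPKM. It was at 141 and 186 in the SVZ, 39.97 in OB and 39.7 in DG. Rgs4 was the member furthest below STR in the SVZ, at -1.67 ± 0.47 (-1.47 within the set), and OB minus STR and DG minus STR were -3.66 ± 0.54 and -3.67 ± 0.54. Its share of the RGS FPKM was 42.1% in STR, 15.2% and 22.7% in the SVZ, and 12.8% and 13.6% in OB and DG.

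Rgs2, which acts on Gq, was at 48.4 and 95.96 FPKM in the SVZ, 82.8 in STR, 12.5 in OB and 10.7 in DG. Rgs20, which acts on the Gz alpha subunit, was at 64.4 and 74.8 FPKM in the SVZ, 79.6 in STR, 15.6 in OB and 9.69 in DG. Both had SVZ and STR above OB and DG without overlap. Their DG minus STR differences were -2.84 ± 0.69 for Rgs2 (bridged -1.86) and -2.91 ± 0.46 for Rgs20 (bridged -2.70). Gnaz, the gene of the Gz alpha subunit itself, was at 18.01 to 35.1 FPKM. Rgs8 was at 77.3 and 67.00 FPKM in the SVZ, 73.7 in STR, 35.9 in DG and 15.1 in OB.

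Rgs14, an RGS scaffold known from hippocampal area CA2, was low in OB alone. It was at 51.3 and 27.9 FPKM in the SVZ, 33.8 in DG, 21.3 in STR and 3.19 in OB, with 3.21 ± 0.55 for SVZ minus OB (3.64 within the set) and -3.06 ± 0.64 for OB minus DG. Its close relative Rgs12 was highest in OB, at 62.6 FPKM in OB, 20.3 in DG, 17.7 and 9.04 in the SVZ and 10.1 in STR (2.52 ± 0.66 for OB minus STR, bridged 1.63). Rgs3 was likewise highest in OB, at 21.4 FPKM against 3.53 in DG, 10.8 and 6.45 in the SVZ and 4.93 in STR. Its OB minus DG difference was 2.30 ± 0.58. Rgs19 was at 17.5 FPKM in DG and 5.02 to 10.9 elsewhere (1.62 ± 0.57 for DG minus STR, bridged 0.97). Rgs5, a marker of pericytes, and Rgs10, which microglia express, were at 17.5 to 29.3 and 21.3 to 35.8 FPKM.

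In the SVZ, Rgs22 was the 1 member at least 4-fold above every other region (0.602% of coding genes were). It was at 4.99 and 4.26 FPKM in the SVZ, 0.177 in DG, 0.0995 in STR and 0.0485 in OB, and SVZ minus STR was 2.35 ± 0.27 (2.26 within the set). Rgs22 is best known from testis. Akap14, an anchoring protein known from cilia of human airway cells, had the same order at a lower level, 3.63 and 2.79 FPKM in the SVZ and 0.167 to 0.722 elsewhere, and SVZ minus STR was 1.58 ± 0.30. Markers of ependymal cells (8 genes, sums given above) moved with both, with Tmem212 listed at 0 in STR and Dynlrb2 in DG. Of these, Tekt4 was higher in OB (3.04 FPKM) than in SVZ sample 2 (2.48). Markers of cycling cells (6 genes, Ccnb1 at 0 in DG) moved with both too. They summed to 57.7 and 40.8 in the SVZ and to 1.14 to 4.82 elsewhere. The part of either list was not tested. Among members that reached 5 FPKM and whose SVZ samples shared a direction, the 5 highest for SVZ minus STR included Pde1c (0.86 ± 0.47) and Rgs14 (0.80 ± 0.55), and the 5 lowest Adcy1 (-1.05 ± 0.40) and Gng11 (-0.57 ± 0.47). None of these reached 4-fold.

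In OB, Gng4 and Adcy8 were at least 4-fold above every other region (1.7% of coding genes), and in DG Adcy1 and Gng2 were (0.738% of coding genes). STR had no such member (0.1% of coding genes). Gng7, Pde8b and Rgs14 were at least 4-fold below every other region in OB (0.244% of coding genes), and Pde1c in DG (0.373% of coding genes). In the SVZ 0 members were so low (0.0143% of coding genes), and in STR 0 (0.0788% of coding genes). With bridged values Pde1c was 1.81 log2 units from its nearest region and missed 4-fold.

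The sequences just upstream of the start site are given for 4 genes of the block high in SVZ and STR that have 1 promoter in the RefSeq table, and for Adcy1, to show what they do and do not share in simple promoter elements. Each is the 150 bases before the start, 5′ to 3′ on the gene's strand, from RefSeq on GRCm38.p6, a later build than the mm9 of the expression table. Capitals mark a match on either strand to any of the elements searched. The GC box, bound by Sp family factors, was searched as GGGCGG. For the TATA box, which places the start of transcription, the letters were TATAAA. The cAMP response element, which the PKA target CREB binds, was searched by its core TGACG.
Adcy5, chr16:35154714-35154863, plus strand: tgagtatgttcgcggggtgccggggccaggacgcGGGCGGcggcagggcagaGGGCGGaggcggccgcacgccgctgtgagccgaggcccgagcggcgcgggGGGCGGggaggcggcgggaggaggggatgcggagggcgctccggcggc
Akap5, chr12:76324741-76324890, plus strand: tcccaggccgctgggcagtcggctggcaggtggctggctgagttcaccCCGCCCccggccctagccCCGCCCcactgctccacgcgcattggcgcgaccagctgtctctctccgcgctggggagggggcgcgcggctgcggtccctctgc
Pde7b, chr10:20548329-20548478, minus strand: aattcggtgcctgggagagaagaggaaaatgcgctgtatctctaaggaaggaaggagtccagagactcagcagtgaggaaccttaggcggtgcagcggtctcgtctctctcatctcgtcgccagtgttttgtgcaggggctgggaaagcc
Rgs9, chr11:109298182-109298331, minus strand: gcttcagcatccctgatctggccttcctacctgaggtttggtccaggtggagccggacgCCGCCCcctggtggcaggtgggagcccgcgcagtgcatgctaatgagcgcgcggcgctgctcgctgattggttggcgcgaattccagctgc
Adcy1, chr11:7063283-7063432, plus strand: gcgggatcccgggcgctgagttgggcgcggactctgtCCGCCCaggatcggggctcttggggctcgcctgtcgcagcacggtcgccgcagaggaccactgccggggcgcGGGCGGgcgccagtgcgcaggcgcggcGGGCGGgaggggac
The stretches held 3 GC boxes for Adcy5 and for Adcy1, 2 for Akap5, 1 for Rgs9 and 0 for Pde7b, and none held a TATA box or a cAMP response core. RefSeq promoters, 133 in all, matched 82 of the 106 members. In the 250 bases upstream, 43.6% of these held a GC box, against 32.7% of all 32851 promoters. The core was in 16.5% of member promoters and 17.8% of all, the full element (TGACGTCA) in 1 of 133 (0.752%), a promoter of Prkar1a, and 1.55% of all, and the TATA box in 6.02% and 12.4%. The full element contains the core, so these shares overlap. A match in these letters is a description and not a site of binding.

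Transcripts of 1 gene could also be used in unequal shares. Of 27 members with more than 1 RefSeq transcript, 21 were at 5 FPKM or more in every library, and 13 of them had another leading transcript in some libraries. Such shares are the authors' estimates, and for some genes the SVZ samples themselves had different leaders. The 3140-base transcript of Gnb1 held 48.8% of its FPKM in SVZ sample 1, 92.1% in SVZ sample 2 and 5.83% in STR. In Pde8b the 4619-base transcript held 69.3% in SVZ sample 1 and 24.3% in SVZ sample 2, and in Rgs7 the 2487-base transcript 53.2% and 16.5%. Leading transcripts also differed for Akap2, Gnb5, Gng12, Pde4a, Pde4b, Pde7a and Prkacb. In Pde7a, Gng12 and Pde8b the leader followed the library sets and not the regions. The 3179-base transcript of Pde7a held 84.1% and 78.0% in SVZ sample 2 and STR and 11.8% to 47.1% in the other set. Transcript shares of Pde4a, Rgs7 and Gnb5 parted by set too, while those of Akap2 did not. Single transcripts of Gnb1 and Prkacb also parted by set. The 4328-base transcript of Prkacb held 6.36% and 7.35% in SVZ sample 2 and STR and 21.4% to 42.6% in the other set. The count of 13 therefore does not separate regions from library sets.

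For Pde2a, Rgs12 and Rgs9 both SVZ samples lay on the same side of OB. The 4199-base transcript of Pde2a held 70.7% and 82.4% of the gene's FPKM in the SVZ, 85.3% in STR, 40.5% in DG and 7.58% in OB. In OB the 4051-base transcript led with 64.6%, and in DG it was at 46.4%. Transcripts of Pde2a are known to encode enzymes with different amino ends. For Rgs12 the 3420-base transcript held 92.5% in OB, 72.1% in DG, 70.9% in STR, and 42.00% and 56.1% in the SVZ. Rgs9 was split between a transcript of 2486 bases, at 70.5%, 59.9%, 56.3% and 63.4% in the SVZ samples, STR and DG, and one of 7629 bases that led in OB with 62.8%, where the gene itself was low.

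**Figure D5:**
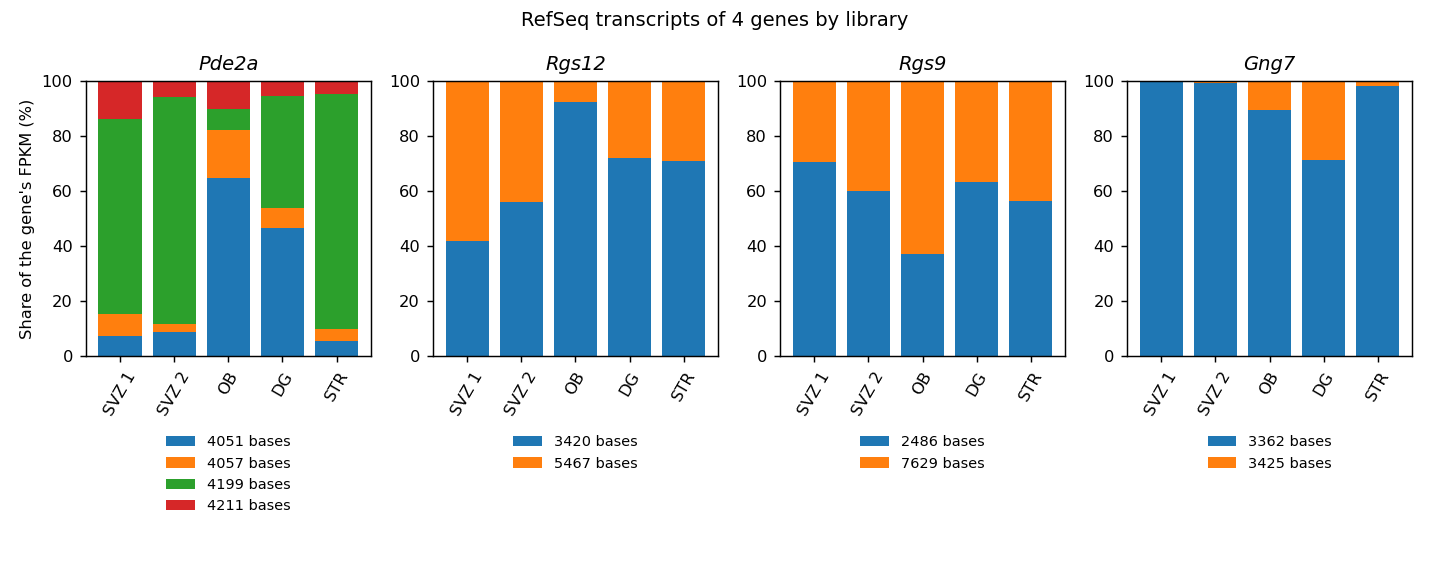
Share (%) of a gene's summed FPKM held by each of its RefSeq transcripts in the 5 libraries, for Pde2a, Rgs12, Rgs9 and Gng7; colours stand for transcripts, named by their length in bases. The 4199-base transcript of Pde2a fills 70.7% to 85.3% of the SVZ and STR bars and 7.58% of the OB bar, and the 3362-base transcript of Gng7 fills 71.3% to 99.7% of each bar.

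A list of 33 other genes of the pathway, all in the table, was set beside the members. For OB minus STR 5 of the 33 at 1 FPKM were at least 4-fold higher (6.4% of coding genes) and 2 lower (2% of coding genes). With bridged values they were 3 and 2 (3.05% and 1.53% of coding genes), without Pkig and Rapgef3. For DG minus STR it was 1 (3.42% of coding genes) and 4 (2.44% of coding genes) of 31. For SVZ minus STR 0 of 30 were apart in either direction (1.5% and 0.144% of coding genes). For SVZ minus OB 2 were higher and 4 lower of 33 (2.09% and 3.62% of coding genes), and 2 and 3 within the set (2.46% and 2.75%). For SVZ minus DG it was 3 and 1 of 31 (2.93% and 2.15%), with 3 and 0 within the set (3.46% and 1.76%). For OB minus DG it was 3 and 0 of 33 (3.67% and 1.46%). By limma none had an adjusted p under 0.05, as for every gene tested. High in SVZ and STR were the PKA targets Ppp1r1b, Arpp19 and Arpp21. Ppp1r1b (DARPP-32), the PKA target of striatal neurons that is itself on the striatal marker list, was at 1627 and 765 FPKM in the SVZ, 939.6 in STR, 33.3 in OB and 31.3 in DG. Arpp19, a PKA substrate that inhibits protein phosphatase 2A, was at 152, 159.6 and 294 FPKM in SVZ 1, SVZ 2 and STR and 16.3 and 21.3 in OB and DG, and Arpp21 at 579.8, 595, 620.0, 162 and 61.6 in that order.

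In OB the pathway genes described here are Gpsm1, a protein that binds GDP-bound Gi alpha, Gprin1, which interacts with Go and Gz, Adcyap1, the cyclase-activating peptide PACAP, and Rapgef3, a cAMP-activated exchange factor. Gpsm1 was at 177 FPKM in OB and 10.4 to 27.3 elsewhere (OB minus STR 3.97, bridged 2.74). Gprin1 was at 120.0 FPKM in OB, 67.4 in DG, 16.7 and 11.5 in the SVZ and 6.76 in STR. Adcyap1 was at 11.8 FPKM in OB and below 1 FPKM elsewhere, and Rapgef3 was at 57.7 FPKM in OB, 22.7 and 6.36 in the SVZ, 10.5 in DG and 5.32 in STR. For Rapgef3 OB minus STR was 3.21 but 1.53 bridged, and SVZ minus OB -2.15 but -1.31 within the set, both under 4-fold. Ric8b, a chaperone of the s class alpha subunits, was at 79.2 FPKM in STR, 62.6 and 57.7 in the SVZ, 22.1 in OB and 15.4 in DG. The transcription factor Creb1, the nuclear target of PKA, was steady at 11.7 to 14.1 FPKM.

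The 18 members below 1 FPKM in every library included genes known from sense organs, germ cells and blood cells. Gnat3, the alpha subunit of taste cells, and Akap4, an anchor of the sperm tail, were listed at 0 in all 5 libraries. The photoreceptor alpha subunits Gnat1 and Gnat2 and the PDE6 subunits other than Pde6d stayed at or under 0.672 FPKM. Rgs1, Rgs13 and Rgs18, which lymphocytes and platelets express, stayed at or under 0.201 FPKM. Pde4dip, which matches the rule by its symbol, encodes a centrosomal and Golgi protein and not a phosphodiesterase, and was at 57.2 to 80.03 FPKM.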

How the data were processed

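PolyA RNA of 5 libraries had been sequenced. CASAVA, TopHat 1.2.0, Cufflinks 1.0.0 and the mm9 build are named, without roles, per the submitters' processing notes; filters, strand and read counts are not given in the sources used here. The authors deposited 1 FPKM value per transcript and library, per the file headers. FPKM were summed over RefSeq transcripts of a symbol. The members and gene lists were chosen with earlier results of these data known.

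Differences were taken on log2(FPKM + 1) for genes that reached 1 FPKM in at least 1 of the regions compared and called at 4-fold. Since FPKM are no counts, limma 3.58.1 (R 4.3.3, moderated test with trend, Benjamini-Hochberg adjustment over all genes tested) was fitted to all 5 libraries and 4 regions. The SVZ pair gave it 1 residual degree of freedom. The error behind its p-values thus comes from 2 samples of different library sets, moderated by a trend over all genes. In pairs without the SVZ, that error holds no spread from the regions compared. A simulation without library sets checked limma's estimates of known differences for OB minus STR, and not its p-values. Depth is unknown, so counting precision is not given. Median ratio scaling, a pseudocount of 0.1, a minimum of 5 FPKM, no filter, the most abundant transcript, a 2-fold call, no trend, within-set or bridged values, and each SVZ sample left out were alternatives. The block of 6 genes, the count over any pair of regions, and shares with Adcy3 and Gng13 put back were chosen after seeing the data.

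In each pair the text names the 5 members with the largest difference each way at 5 FPKM or more, with both SVZ samples in the same direction, along with members 4-fold above every other region, family leaders, members at 0, and genes whose leading transcript differed. Others are examples of their family. Overlapping genes were taken from GENCODE M21, with minimap2 2.31 for pseudogene copies, and promoters from RefSeq. The lncRNA exon annotation was not used.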

Additional observations from a re-analysis of the deposited data

Results flagged for a closer look

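A noncoding transcript of 392 bases from the authors' catalogue, named for Pde7a and outside the members, had signal above the control tissue. It was at 0.817 FPKM in SVZ sample 2 and 0.530 FPKM in OB, against 0.178 in STR, while SVZ sample 1 was at 0.475 and DG was listed at 0. The difference was not tested. Of 8 catalogue transcripts named for members, the highest value was 1.96 FPKM, for one named for Gnb2 in STR. All 8 were listed at 0 in DG, the library with the most transcripts at 0.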

How the results depend on the processing

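Of 60 named differences under 8 alternatives, 229 of 480 values equalled the reported value exactly, since the filters, an SVZ sample left out of a pair without SVZ, bridging of OB minus DG, or the choice of transcript in a gene with 1 cannot change them. Of the other 251, 21 moved by more than 1 SE, 11 of them with within-set or bridged values, and 0 called ones reversed. Pde9a in SVZ minus STR, which was not called, changed sign from 0.68 to -1.26 on its most abundant transcript. Bridging lowered OB minus STR of Rgs12 to 1.63, Akap12 to 1.76 and Adcy6 to 1.36, all under 4-fold. The most abundant transcript lowered Pde1c in OB minus DG to 1.94. With a 2-fold call the counts were 8 for SVZ minus STR, 38 for OB minus STR, 33 for DG minus STR, 35 for SVZ minus OB, 34 for SVZ minus DG and 26 for OB minus DG. The share of all coding genes at 2-fold is not given here, so those counts cannot be read as a trait of the members. The SVZ minus STR count of 1 became 2 with a pseudocount of 0.1 and with the most abundant transcript, and 0 with a minimum of 5 FPKM, which also left 0 members highest in the SVZ. That minimum gave 1 limma call each in SVZ minus OB, SVZ minus DG and OB minus DG. The cause was not tested. Leaving out an SVZ sample gave 13 to 24 members for SVZ minus OB, 15 to 16 for SVZ minus DG, 2 to 3 highest in OB, 30 to 31 apart between any regions and 6 to 9 in the block. Without an SVZ sample limma has no residual degree of freedom and was not run. No paired analysis was possible because only the SVZ has replicate numbers. With 1 sample each of OB, DG and STR, and depth unknown, low FPKM values carry an error that cannot be given.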
